A study of Homo sapiens with 8 samples.

Results

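The Notch pathway genes described here are NOTCH1, NOTCH2 and NOTCH3, which encode receptors, JAG2, which encodes a ligand, MAML1, which encodes a coactivator, and RBPJ, which encodes the DNA-binding factor of the pathway. They were chosen by name, and their peaks were all RBM45 CLIP peaks listed on the gene's own strand inside a fixed hg19 span. The 6 spans held 156 of 210878 peaks in wild-type (WT) CLIP replicate 1, 42 of 65587 in replicate 2, and 11 of the 13758 pairs in the authors' list of peaks shared by both. Where the lists give a peak on both strands, each strand is a separate entry.

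Notch signalling passes between touching cells. A ligand such as a Jagged protein on one cell binds a Notch receptor on the next, and the receptor is then cut, so that its intracellular part moves to the nucleus. There it joins the DNA-binding protein RBPJ and a Mastermind coactivator such as MAML1 to switch on target genes. The pathway is known for holding neural progenitors in an undifferentiated state.

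The study mapped where RBM45, an RNA-binding protein, sits on RNA, in cells with and without METTL3, the catalytic subunit of the enzyme that places most m6A, a methyl mark, on messenger RNA. All cells were HEK293T, an established transformed human embryonic kidney line, and all carried FLAG-HA-tagged human RBM45 from a lentivirus and received 300 mJ/cm2 of ultraviolet light at 254 nm. The 8 libraries were Mettl3 KO CLIP, WT CLIP, Mettl3 KO input and WT input, with 2 replicates each, where CLIP used an HA antibody and the size-matched input used none. The sources used here give neither the promoter that drove the tagged RBM45 nor whether the knockout line was 1 clone. Only the WT CLIP peak lists were analysed here. The knockout, the inputs and read counts were not, so sequencing depth is not known for either list, and nothing below bears on METTL3 or m6A.

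Each listed peak carries a fold enrichment over background and an unadjusted −log10 p, both as the authors' peak caller gave them. Positions are in hg19, counted from 1. Distances run from the 5′ end of the gene span, as the strand sets it, to the middle of the peak. With 1 list per replicate and no labelled counts there is no replicated test, and intervals below are 95% exact intervals (Clopper-Pearson for shares, Poisson for densities) that reflect counting error alone and take peaks to be independent. The labels do not say that the replicates came from separate cultures, so the spread between them may be technical.

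All 6 genes had peaks in both lists, but they differed in how the replicates divided them. NOTCH3 had 37 peaks in replicate 1 and 2 in replicate 2, a ratio of 18.5. JAG2 had 26 and 4, a ratio of 6.5. NOTCH1 had 24 and 6, a ratio of 4. NOTCH2, with 28 and 10, MAML1, with 21 and 10, and RBPJ, with 20 and 10, lay at ratios of 2.8, 2.1 and 2. The ratio over the 6 genes together was 3.71, against 3.22 over the whole lists. NOTCH3, JAG2 and NOTCH1 lay above the ratio of the whole lists and NOTCH2, MAML1 and RBPJ below it. The ratios were given no interval and rest on 10 or fewer replicate 2 peaks per gene. The side on which a gene lay is therefore not established.

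**Figure D1:**
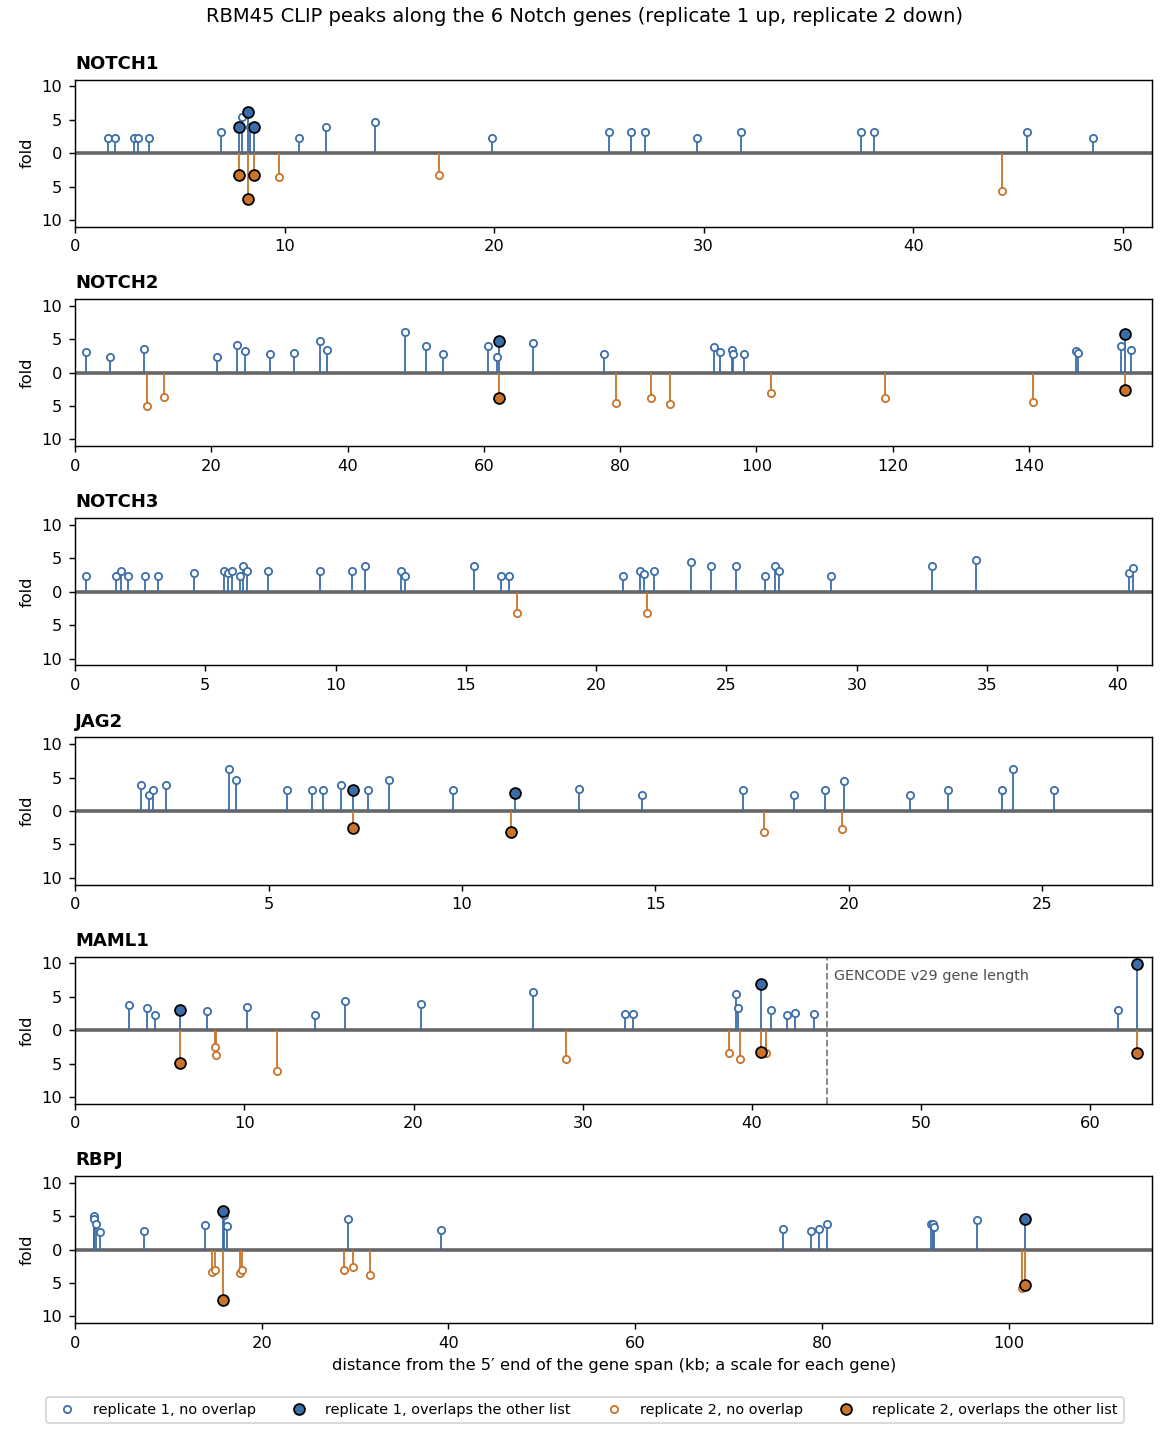
Peaks along each gene span, with distance from the 5′ end in kb on the x axis (a separate scale for each gene) and fold enrichment on the y axis, replicate 1 above the line and replicate 2 below it. Filled points overlap a peak of the other list. NOTCH3 has 37 peaks above the line, 2 below it and no filled point, while NOTCH1 has 3 overlapping peaks side by side near 8 kb.

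Peaks per kb of span put the genes in another order. In replicate 1 the density was 0.934 per kb in JAG2 (0.610 to 1.37), 0.895 in NOTCH3 (0.630 to 1.23), 0.467 in NOTCH1 (0.299 to 0.694), 0.330 in MAML1 (0.204 to 0.504), 0.177 in NOTCH2 (0.118 to 0.256) and 0.173 in RBPJ (0.106 to 0.268). The intervals of neighbours in this order overlapped, while those of JAG2 and NOTCH3 lay above those of MAML1, NOTCH2 and RBPJ. That of NOTCH1 lay above those of NOTCH2 and RBPJ. These densities and intervals were computed for the full list only. The stronger 50% by −log10 p kept 9 of 26 JAG2, 11 of 37 NOTCH3 and 7 of 24 NOTCH1 peaks. It kept 11 of 21 in MAML1, 17 of 28 in NOTCH2 and 14 of 20 in RBPJ, and no densities are given for it. In replicate 2 the order changed, with MAML1 highest at 0.157 per kb (0.0753 to 0.289), then JAG2 at 0.144 (0.0391 to 0.368), NOTCH1 at 0.117 (0.0428 to 0.254), RBPJ at 0.0866 (0.0415 to 0.159), NOTCH2 at 0.0632 (0.0303 to 0.116) and NOTCH3 lowest at 0.0484 (0.00586 to 0.175). Every interval in replicate 2 overlapped every other. Overlap of intervals is not a test of a difference and none was run, so no order of the genes is claimed from these 42 peaks.

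For scale, all chromosomes were tiled with windows of each gene's length, 1 strand at a time, and windows with at least 1 peak in either list were kept. Such windows held a median of 4 replicate 1 peaks at the length of NOTCH1 (interquartile range 2 to 9), where NOTCH1 had 24. At the length of JAG2 the median was 3 (1 to 6), where JAG2 had 26, and at that of NOTCH3 it was 3 (1 to 7), where NOTCH3 had 37. At the lengths of NOTCH2, MAML1 and RBPJ the medians were 7 (3 to 17), 4 (2 to 10) and 6 (2 to 14), against 28, 21 and 20 peaks in these genes. Each gene lay above the upper quartile in replicate 1. In replicate 2 the upper quartiles were 2, 5, 2, 2, 3 and 4 at the lengths of NOTCH1, NOTCH2, NOTCH3, JAG2, MAML1 and RBPJ, and NOTCH3, with 2 peaks, did not exceed its own. Among windows with a replicate 2 peak, the median ratio of replicate 1 to replicate 2 peaks was 2.5, 3, 2.33, 2, 2.67 and 3, in that order. Windows cut across gene ends and take in stretches with no gene, which the spans do not, so the comparison is a description.

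**Figure D2:**
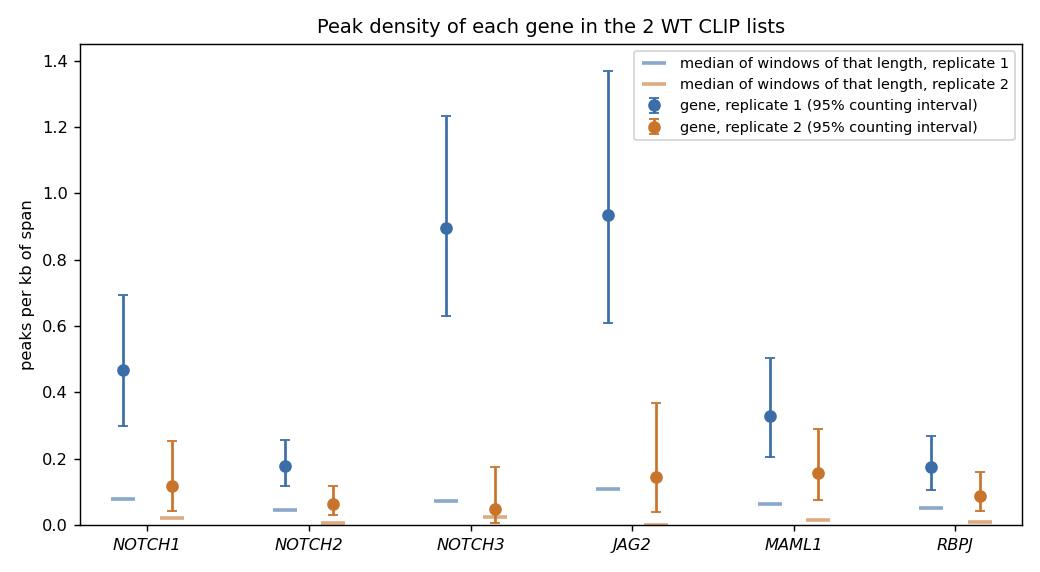
Peaks per kb of span (y axis) for each gene (x axis) in the WT CLIP lists, with 95% exact Poisson intervals as bars. Short horizontal marks give the median of windows of the same length that hold a peak. JAG2 and NOTCH3 are highest in replicate 1, at 0.934 and 0.895 per kb, and all replicate 2 intervals overlap.

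Peaks in the 6 genes overlapped between replicates about as often as peaks elsewhere. Of the 42 replicate 2 peaks, 12 shared at least 1 base with a replicate 1 peak, which is 28.6% (15.7 to 44.6), against 28.8% of all replicate 2 peaks. Of the 156 replicate 1 peaks, 12 overlapped replicate 2, which is 7.69% (4.04 to 13.1), against 8.88% of all. A share so close to that of the whole lists is no result about the Notch genes. The deposited pairs took in 11 of the 156 replicate 1 peaks and 11 of the 42 replicate 2 peaks, where 6.52% and 20.9% of all peaks were in a pair. By gene, the overlapping replicate 2 peaks numbered 3 of 6 in NOTCH1, 2 of 10 in NOTCH2, 0 of 2 in NOTCH3, 2 of 4 in JAG2, 3 of 10 in MAML1 and 2 of 10 in RBPJ. Each gene's interval included the share over all peaks. With only as many of the strongest replicate 1 peaks as replicate 2 has, the share was 0% in JAG2 and 16.7% in NOTCH1, against 50% in each with the full list. The share over all peaks is not given for that shortened list, so this fall is no result about these genes.

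Of the 30 replicate 2 peaks without an overlap, 16 lay within 1 kb of a replicate 1 peak on the same strand (53.3%, against 56.3% of all unmatched replicate 2 peaks). In JAG2 a replicate 2 peak 19.8 kb from the 5′ end missed its replicate 1 neighbour by 5 bases. In NOTCH3 the 2 replicate 2 peaks lay 249 and 69 bases from the nearest replicate 1 peak. NOTCH2 had a replicate 2 peak at 118.9 kb whose nearest replicate 1 peak was 20608 bases away.

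NOTCH1, a receptor often mutated in T-cell leukaemia, had its shared peaks in 1 short stretch. Its 3 deposited pairs lay at 7.81, 8.24 and 8.52 kb, where 6 replicate 1 and 3 replicate 2 peaks fell within 1.56 kb. The middle pair was the strongest of the gene in both lists. It lay at chromosome 9, 139432058 to 139432096, minus strand, in replicate 1, with a fold of 6.19 and a −log10 p of 8.997, and at 139432057 to 139432088 in replicate 2, with a fold of 6.82 and a −log10 p of 9.64. The flanking pairs, at 139432486 to 139432520 and 139431773 to 139431805, had the same values as each other, a fold of 3.90 and a −log10 p of 4.93 in replicate 1, and 3.21 and 2.71 in replicate 2. An unpaired replicate 1 peak between them, at 139432353 to 139432386, had a fold of 5.46. Outside this stretch, replicate 2 listed a peak of 5.62-fold at 44.3 kb, 1140 bases from the nearest replicate 1 peak.

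NOTCH2, the longest span at 158.1 kb, had its peaks spread out and only 2 pairs. At 62.2 kb the paired peaks, chromosome 1, 120550126 to 120550155 in replicate 1, minus strand, had folds of 4.68 and 3.81. At 154.1 kb, near the 3′ end, the replicate 1 peak at 120458206 to 120458239 was the strongest of the gene by −log10 p, 11.5, with a fold of 5.75, while its replicate 2 partner had a fold of 2.67 and a −log10 p of 2.96. The highest replicate 1 fold, 6.13, was at 48.5 kb, 13664 bases from any replicate 2 peak. The strongest replicate 2 peak by −log10 p, 8.45, lay at 79.4 kb with a fold of 4.54 and no overlap. Replicate 1 listed no peak between 98.2 and 146.9 kb, where replicate 2 listed 3, at 102.1, 118.9 and 140.5 kb. NOTCH2 has partial copies, the NOTCH2NL genes, on the same chromosome, so reads from its 5′ part can have more than 1 place, and their treatment is not stated in the sources.

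NOTCH3, a receptor of vascular smooth muscle, held the most replicate 1 peaks of the 6 genes in the full list and no overlap with replicate 2. Its share of overlapping replicate 1 peaks, 0% (0 to 9.49), had an interval that included the 8.88% of all replicate 1 peaks. In the stronger 50% of the list NOTCH3 kept 11, fewer by count than NOTCH2 with 17 and RBPJ with 14. NOTCH3 has the shorter span, 41.3 kb against 158.1 and 115.4 kb. Its peaks lay close together, with 31 of 37 within 1 kb of another, including 5 between 1.56 and 3.18 kb and 7 between 5.73 and 7.39 kb. Over the 6 genes 100 of 156 did, or 64.1%, against 55% of all replicate 1 peaks. None of the 37 was above 5-fold, where 9.16% of all replicate 1 peaks were. The highest fold was 4.68, at 34.6 kb, in a peak 85 bases wide, and the highest −log10 p was 7.29, at chromosome 19, 15271159 to 15271221, near the 3′ end. The 2 replicate 2 peaks, at 16.95 and 21.95 kb, had the same fold of 3.21 and the same −log10 p of 2.71.

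JAG2, a transmembrane ligand of the Notch receptors, was the shortest span at 27.8 kb. Its single pair, chromosome 14, 105627955 to 105627984, minus strand, covered the same 30 bases in both lists, with folds of 3.12 and 2.61. A second overlap, between a 169-base replicate 1 peak at 105623717 to 105623885 and a 59-base replicate 2 peak at 105623854 to 105623912, was not in the deposited pairs. The strongest JAG2 peaks of replicate 1 were 2 at 6.24-fold, at 3.99 and 24.2 kb, and neither overlapped replicate 2. No replicate 2 peak passed 3.14-fold. A same-strand processed transcript, AL512356.1, overlaps JAG2 in GENCODE v29, and reads from the part they share cannot be told apart. How much of JAG2 it covers, and whether any peak lies there, was not determined.

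MAML1, a Mastermind coactivator, had a group of peaks near the 3′ end of its annotated length. Between 38.7 and 43.7 kb lay 7 of its replicate 1 and 4 of its replicate 2 peaks. A pair there, at chromosome 5, 179200326 to 179200447, plus strand, was the widest of all 11, 122 bases in replicate 1 and 71 in replicate 2, with folds of 6.87 and 3.32. A pair at 6.20 kb, 179166039 to 179166068, had folds of 3.05 and 4.84. The strongest replicate 2 peak of MAML1, 6.13-fold at 11.9 kb, was 1752 bases from the nearest replicate 1 peak.

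The strongest peak in the 6 spans lay past the annotated length of MAML1. The pair at 62.7 kb, 179222563 to 179222592, had a fold of 9.94 and a −log10 p of 17.8 in replicate 1, and 3.34 and 6.998 in replicate 2. GENCODE v29, on the GRCh38 build, gives MAML1 a length of 44.4 kb, against 63.7 kb for the span used here. It places LTC4S, 2.67 kb long, on the same strand 16.7 kb after the end of MAML1. The stretch from 43.7 to 61.6 kb held no replicate 1 peak, and only 2 replicate 1 peaks and 1 replicate 2 peak lay farther from the 5′ end than 44.4 kb. Without them MAML1 had 19 and 9 peaks, 0.428 and 0.203 per kb, a highest replicate 1 fold of 6.87 and 2 pairs. If distances are alike in the 2 builds, the peaks at 61.6 and 62.7 kb fall within LTC4S, past the end of MAML1. Positions of the 2 builds were not joined, so this was not checked.

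RBPJ, the DNA-binding partner of the cleaved receptors, had 20 replicate 1 peaks and 2 pairs. The pair at 15.8 kb, chromosome 4, 26337144 to 26337180 in replicate 1, plus strand, had folds of 5.72 and 7.51, with −log10 p of 9.63 and 12.4, and was the strongest peak of the gene in each list. The pair at 101.8 kb, 26423103 to 26423132, had folds of 4.62 and 5.35. Peaks came in groups, with 4 replicate 1 peaks between 1.97 and 2.67 kb that replicate 2 lacked, and none in either list between 39.2 and 75.8 kb. Only 8.88% of all replicate 1 peaks overlapped replicate 2, so such a lack is common and no trait of RBPJ. In replicate 2, 9 of 10 peaks had another within 1 kb, against 18 of 42 over the 6 genes and 43.4% of all. The span of 115.4 kb is shorter than the 271.7 kb that GENCODE v29 gives RBPJ over all its transcripts. Neither list held a peak within 50 kb on either side of the span, and peaks farther out were not counted.

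The 11 pairs were set beside all deposited pairs. Their median fold was 4.68 in replicate 1 and 3.34 in replicate 2, against 4.11 and 4.23 over all 13758 pairs. Both peaks exceeded 5-fold in 2 pairs, the middle NOTCH1 pair and the 15.8 kb RBPJ pair, and over all pairs 13.9% did. In 8 of 11 pairs the folds differed by less than 2 times, against 90.5% of all pairs. The exceptions were NOTCH2 at 154.1 kb and the MAML1 span at 40.5 and 62.7 kb, each higher in replicate 1, by 2.15, 2.07 and 2.98 times. The pair at 62.7 kb lies past the annotated length of MAML1. Replicate 2 was higher in 4 pairs, both of RBPJ, 1 of NOTCH1 and 1 of MAML1.

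**Figure D3:**
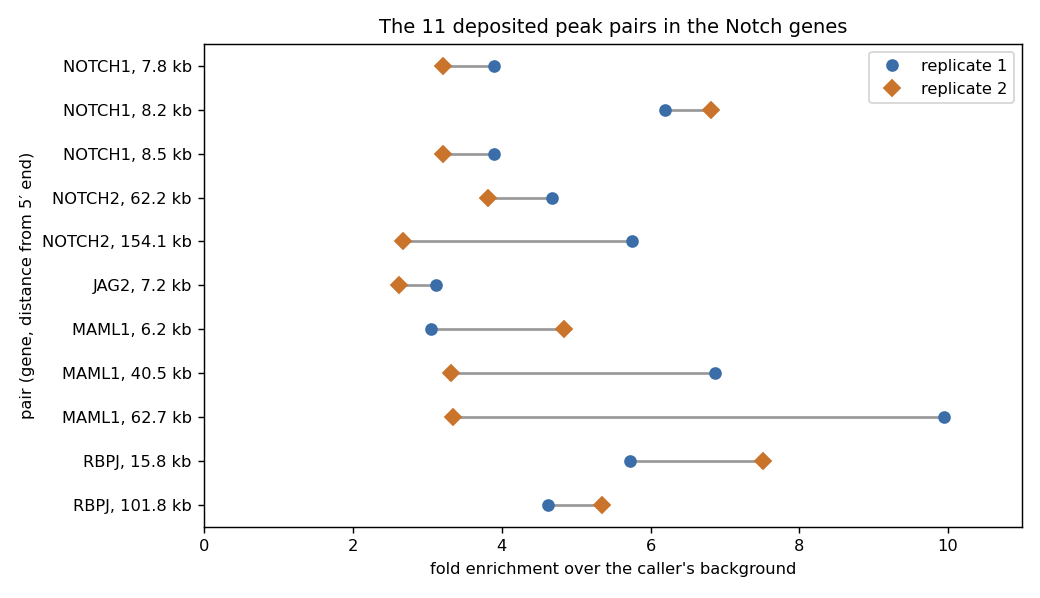
Fold enrichment of the 2 peaks of each deposited pair (x axis), 1 row per pair with its gene and distance from the 5′ end (y axis), circles for replicate 1 and diamonds for replicate 2. The NOTCH1 pair at 8.2 kb and the RBPJ pair at 15.8 kb exceed 5-fold in both lists. The pair at 62.7 kb in the MAML1 span, past the annotated length of that gene, has the widest difference, 9.94 against 3.34.

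Among single peaks, 13 of 156 in replicate 1 exceeded 5-fold, or 8.33% (4.51 to 13.8), against 9.16% of all. In replicate 2 it was 6 of 42, or 14.3% (5.43 to 28.5), against 18% of all. The median fold was 3.12 in the 6 genes and 3.12 in the whole list for replicate 1, and 3.48 and 3.81 for replicate 2. Median widths were 31 and 30 bases in replicate 1 and 30.5 and 31 in replicate 2. In replicate 1 the 12 overlapping Notch peaks had a median fold of 4.65, against 3.12 in the 144 others. Over the whole list these were 3.96 and 3.12. In replicate 2 the 12 had 3.33 and the 30 others 3.52, the opposite order to the whole list, where overlapping peaks had 4.13 and the others 3.72.

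The fold and p values of NOTCH1, NOTCH3 and JAG2 were largely tied, and those of MAML1 and RBPJ were not. The 2 commonest value pairs of the whole replicate 1 list, a fold of 2.34 with a −log10 p of 2.52 and a fold of 3.12 with 3.68, made up 35.3% of peaks in the 6 genes and 28.5% of all. These folds are 3 and 4 times a step of 0.77989, the difference between them. Folds within 0.001 of a whole multiple of that step were found in 23 of 24 NOTCH1 peaks, 28 of 37 NOTCH3 peaks, 22 of 26 JAG2 peaks, 6 of 28 NOTCH2 peaks, 0 of 21 MAML1 peaks and 0 of 20 RBPJ peaks, and in 34.5% of all replicate 1 peaks. The 24 NOTCH1 peaks thus took only 6 different combinations of fold and −log10 p, while the 20 RBPJ peaks took 19. The genes with tied folds were also those with the highest ratio of replicate 1 to replicate 2 peaks, though these ratios carry no interval. Among these genes the order was reversed. NOTCH1 had the largest share of folds on the step and the lowest ratio, 4, and NOTCH3 the smallest share and the highest ratio, 18.5. Which background or read number lies under each step was not tested.

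**Figure D4:**
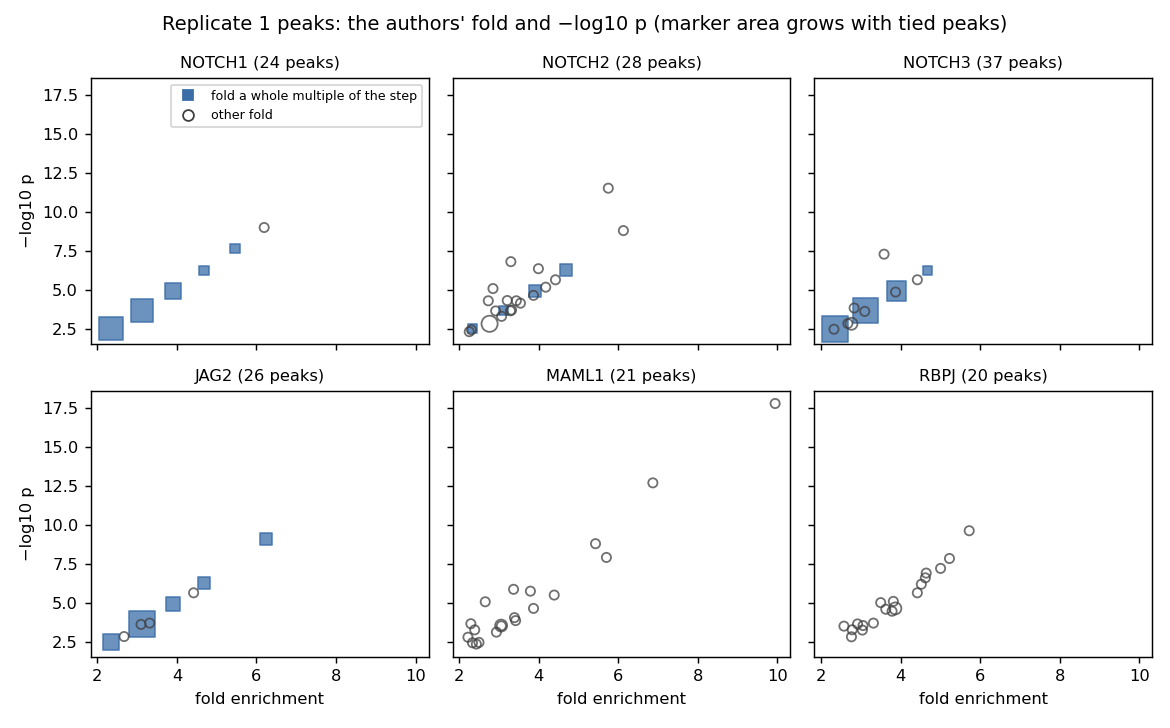
Fold enrichment (x axis) against −log10 p (y axis) for the replicate 1 peaks of each gene, with marker area growing with the number of peaks at the same values. Squares have a fold that is a whole multiple of the step of 0.77989 and circles do not. NOTCH1, NOTCH3 and JAG2 sit on few repeated points, and MAML1 and RBPJ have no squares.

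No peak on the strand opposite to a gene was listed inside any of the 6 spans, 0 beside 156 in replicate 1 and 0 beside 42 in replicate 2, so no ratio was taken. This does not show that reads came from 1 strand only, because the strand in the lists may have been taken from a gene annotation. In GENCODE v29 an antisense gene, AL592301.1, overlaps NOTCH1 on the opposite strand. Within 50 kb on either side of NOTCH2 and of RBPJ, neither list held a peak on either strand. Downstream of MAML1 the lists did hold peaks on the opposite strand, 13 in replicate 1 and 14 in replicate 2, beside 21 and 5 on its own. Downstream of NOTCH3 each list held 1 on the opposite strand, and downstream of JAG2 replicate 1 held 1 and replicate 2 held 0. Around NOTCH1 the nearest same-strand peaks began 12.13 kb downstream in replicate 1 and 11.99 kb downstream in replicate 2, where 23 and 6 were listed within 50 kb. The header of the authors' count table records counting by strand. How peaks were given a strand, and whether peaks outside genes were kept, is not stated in the sources. Exons and introns were not assigned to peaks, since the annotation at hand is on another build. In it, merged exons cover 20.2% of NOTCH1, 10.6% of NOTCH2, 22.4% of NOTCH3, 23.0% of JAG2, 13.4% of MAML1 and 3.41% of RBPJ.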

How the data were processed

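Peaks were called per library with a p threshold of 0.005, per the names in the deposited lists. The submitters' processing notes name deepTools 3.2.1, HOMER 4.11.1, bedtools 2.25.0, the aligner Novoalign 3.09.00, the peak caller MACS2 2.1.1.20160309 and the build hg19. Which control the caller used is not stated in the sources. The deposited lists hold for each peak an unadjusted −log10 p, a fold enrichment, which is a ratio, and a score that is 10 times the −log10 p without its decimals. The deposited list of pairs adds the length of their overlap in bases, which is tabulated as a signal but is not read coverage. The authors' count table has 8 columns that could not be tied to samples by name. The table was left out, and the planned comparison of knockout with WT CLIP was not run.

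Rows that repeat a peak on the same strand were merged into 1. Peaks overlapped where they had 1 base or more in common and the same strand. The overlap count was tested on simulated data and against bedtools 2.31.1. Intervals were computed with scipy 1.17.1, tables with pandas 2.3.3 and numpy 2.4.6 and figures with matplotlib 3.10.9, under Python 3.11.15. Gene identifiers and lengths came from GENCODE 29 (GRCh38), by symbol, for 6 of 6 genes: ENSG00000148400.10 (NOTCH1), ENSG00000134250.19 (NOTCH2), ENSG00000074181.8 (NOTCH3), ENSG00000184916.8 (JAG2), ENSG00000161021.12 (MAML1) and ENSG00000168214.20 (RBPJ). The hg19 spans in bases were chromosome 9, 139388896 to 139440314 (NOTCH1), chromosome 1, 120454176 to 120612317 (NOTCH2), chromosome 19, 15270444 to 15311792 (NOTCH3), chromosome 14, 105607318 to 105635161 (JAG2), chromosome 5, 179159851 to 179223512 (MAML1), and chromosome 4, 26321332 to 26436753 (RBPJ).

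The genes, lists and tests were chosen with earlier results of these data known. Named peaks were, per gene, the pairs with the highest lower fold, the strongest peak of each list by −log10 p and the widest pair. The other pairs, the peaks nearest a gap or another peak, and the JAG2 overlap outside the pairs were named after their values were seen. Other Notch pathway genes and peak sequences were not analysed here, since both need hg19 annotation or sequence.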

Additional observations from a re-analysis of the deposited data

How the results depend on the processing

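Over the 6 genes together, the share of replicate 2 peaks that overlap replicate 1, 28.6%, stayed within its interval under all 7 alternatives: 26.2% with 50% of both peaks or of the replicate 1 peak required, 23.5% in the stronger 50% of each list, 16.7% with only as many of the strongest replicate 1 peaks as replicate 2 has, 28.6% with strand ignored or by midpoint, and 26.8% with MAML1 cut at its GENCODE length. Ignoring strand or taking midpoints could not change the share. No opposite-strand peak was listed in the spans, and no listed peak crossed a span end. Single genes moved more: NOTCH2, at 20%, had 0% in the stronger lists, and JAG2, at 50%, had 0% with the shortened replicate 1 list. The share over all peaks is not given under these alternatives, so whether it fell alike is not known. The number of pairs, 11, was 2 with both peaks above 5-fold, since fewer pairs qualify, 10 with MAML1 cut, and 11 otherwise. Peaks on the opposite strand numbered 0 under every alternative run, and none of these alternatives could add a peak. In the stronger 50% of each list NOTCH1 kept 7 of its 24 replicate 1 peaks, NOTCH2 17 of 28, NOTCH3 11 of 37, JAG2 9 of 26, MAML1 11 of 21 and RBPJ 14 of 20, so NOTCH3 no longer had the most. The cut of MAML1 and the peak counts per gene in the stronger lists were added after the data were seen. With 42 replicate 2 peaks the shares are known only to within wide intervals. Leaving out a replicate gives no value for overlaps or pairs, which need both lists. No paired analysis was possible because no column of counts could be tied to a sample by name. For the same reason the other normalization and count filter were not run.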

Other observations

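The lists repeat each peak in a number of rows that was constant over stretches of a gene. Every RBPJ peak stood in 4 rows and every JAG2 peak in 2, in both lists, while every NOTCH1 and MAML1 peak stood in 1. In NOTCH2 the 23 replicate 1 peaks from 1.58 to 98.2 kb stood in 2 rows and the 5 from 146.9 to 155.0 kb in 1, and in replicate 2 the 8 from 10.6 to 118.9 kb stood in 2 and the 2 from 140.5 to 154.1 kb in 1. In NOTCH3, 36 of 37 replicate 1 peaks stood in 1 row and a single peak, at 21.7 kb, in 2. The only other same-strand gene inside NOTCH3 in GENCODE v29 is the microRNA gene MIR6795, and whether that peak lies on it was not determined. Counting rows instead of peaks would give RBPJ 80 and NOTCH3 38 in replicate 1, and so turn their order round.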
